A study of Homo sapiens with 6 samples.

Results

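The 6 tumour libraries of this series were divided into 2 sides of 3 libraries each, from how their expression values grouped and without regard to the labelled position. Side A holds proximal 1, distal 1 and distal 2, and side B holds proximal 2, proximal 3 and distal 3, so that all 6 of 6 libraries are placed. The libraries were chosen by the measured expression of all genes. Differences between the sides are therefore given as a description, library by library, with no test. The tumours of all 6 were grown from DMS114, an established line of human small cell lung cancer, and invaded the sciatic nerve. Proximal and distal are the 2 invaded regions sampled, with 3 libraries each, and the labels give no other genotype, agent or time. The host animal, the days of growth and whether replicates came from separate animals cannot be read from the sources used here.

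Small cell lung cancer is a fast-dividing tumour that often carries a neuron-like secretory programme, and lines differ in how much of it they keep. Tumour cells cut from tissue bring neighbouring host cells with them, and along a nerve that tissue can include Schwann cells, perineurial fibroblasts and the adjoining skeletal muscle. Energy metabolism, sterol synthesis, antigen presentation and cell division are each run by sets of genes that are usually transcribed together, so a difference between libraries often shows as many small shifts in 1 direction.

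Total counts per library ran from 16171106 in distal 3 to 26116191 in proximal 1, and 13382 of the 17081 deposited genes passed the low-count filter. Values below are CPM (counts scaled to a common library size), in the order proximal 1, distal 1, distal 2 for side A and proximal 2, proximal 3, distal 3 for side B. CPM is not corrected for transcript length, so levels are compared between libraries and not between genes. Of the defining markers of small cell lung cancer, the synaptic vesicle protein SYP was present at 56.9 to 63.9 CPM and the secretory granule protein CHGA at 6.35 to 7.57 CPM, while the neuroendocrine factor INSM1 was low, at 0.837 to 1.47 CPM. YAP1, a transcriptional coactivator that marks tumours of this kind without the neuroendocrine programme, had 167 to 187 CPM.

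The libraries of side A were close to one another, and those of side B were not. Over 9584 genes whose mean reached 10 CPM, the root mean square difference in log2 CPM within side A was 0.15 between proximal 1 and distal 1 and 0.20 for both other pairs, where counting error alone gives 0.0732 to 0.0787. Within side B it was 0.32 between proximal 2 and proximal 3, 0.37 between proximal 3 and distal 3 and 0.44 between proximal 2 and distal 3. Pairs across the sides ran from 0.25, for distal 2 and proximal 3, to 0.50, for distal 1 and distal 3. Side B is thus a set of 3 libraries that lie away from side A, each in its own way, and not a group of like libraries.

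The first principal component of the log2 CPM held 46.1% of the variance and set the libraries in the order of the sides, but mainly by 1 library. On it proximal 1, distal 1 and distal 2 stood at 17.5, 17.97 and 16.3, proximal 2 at 3.24, proximal 3 at -3.24 and distal 3 at -51.8. The second component (21.7%) set proximal 2, at -35.9, against proximal 3, at 16.8, and the third (16.3%) set proximal 3, at -25.3, against proximal 1, at 16.01. Without distal 3 the first component (38.3%) set proximal 2 apart at -36.8, and proximal 3, at 11.4, lay with the side A libraries at 6.68 to 11.04. The name given to the split, the main variance structure, therefore holds for the 6 libraries together and is lost when distal 3 is left out. With the cell type markers left out the first component held 41.97% and still separated the sides, with proximal 2 at -0.22 and proximal 3 at 4.70.

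**Figure D1:**
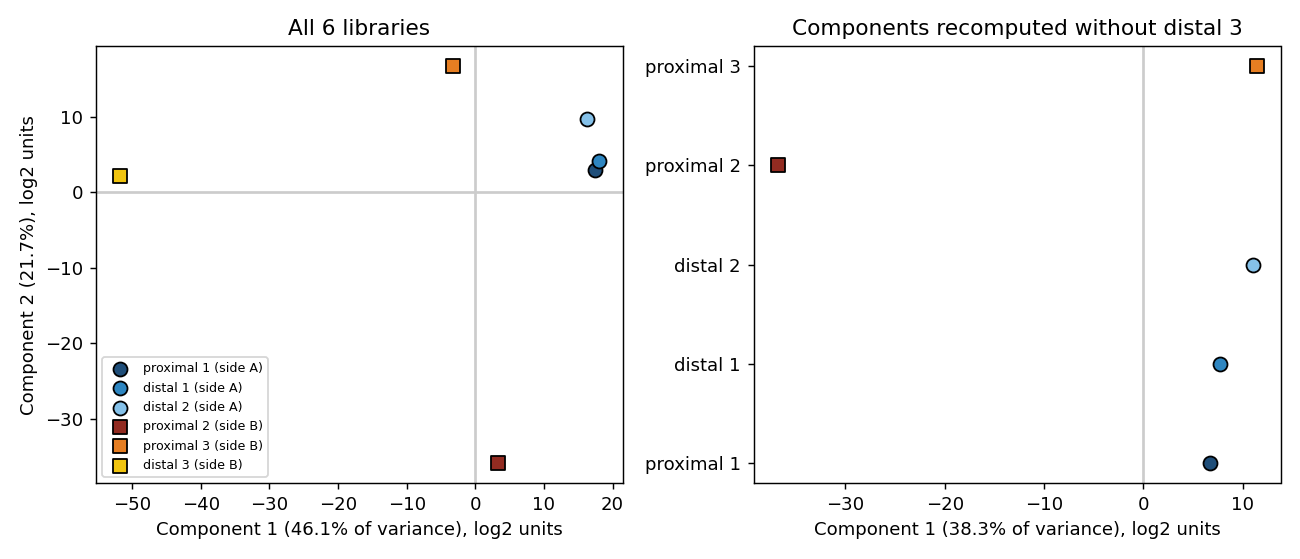
Left, positions of the 6 libraries on the first and second principal components of log2 CPM (axes in log2 units, circles for side A, squares for side B). Right, positions on the first component recomputed without distal 3. Distal 3 lies alone at -51.8 on the left, and on the right only proximal 2 stands apart.

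Across all genes, both sides held about the same number of higher genes. Of 13382 genes tested, 1295 (9.68%) had all 3 side B libraries above all 3 side A libraries, and 1338 (10%) had side A above side B. The labelled positions separated fewer genes: 428 (3.2%) were higher in every distal than in every proximal library, and 413 (3.09%) were lower. The sides were chosen from these same values, which favours larger shares for them, so this comparison cannot weigh side against position. With p-values adjusted by Benjamini and Hochberg's method, the quasi-likelihood test of edgeR for distal against proximal called 0 of 13382 genes (0%), with 178 at an unadjusted p under 0.05, and DESeq2 called 1.

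Single libraries stood out to different degrees. Of 10734 genes whose mean over libraries reached 5 CPM, distal 3 was at least 1.25-fold above all 5 other libraries for 501 (4.67%) and below them for 415 (3.87%). For proximal 2 these were 142 (1.32%) and 157 (1.46%), and for proximal 3 they were 48 (0.447%) and 84 (0.783%). The side A libraries stood out least: proximal 1 for 12 above (0.112%) and 25 below (0.233%), distal 1 for 10 (0.0932%) and 43 (0.401%), and distal 2 for 12 (0.112%) and 33 (0.307%). Counted without a fold, distal 3 was the lowest library for 25.4% and the highest for 26.9% of the 13382 genes, proximal 2 for 17.8% and 16.6%, and proximal 3 for 17.7% and 18.4%. Distal 3 is also the library with the fewest counts, and the part of depth was not tested. These shares are the background for the counts of gene lists given below.

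Skeletal muscle genes made the widest gaps between the sides. Of the 15 genes with the widest gap in favour of side B, 7 encode muscle proteins, and they formed a series from side A through proximal 2 and proximal 3 to distal 3. MYOZ1 (myozenin 1, a protein of the muscle Z-disc, chromosome 10, 73631612 to 73641474, GRCh38) had 0.310, 0.176 and 0.453 against 1.39, 13.2 and 93 CPM. The actin ACTA1 had 0.890, 0.661 and 3.38 against 6.42, 49.8 and 302 CPM and the creatine kinase CKM had 0.155, 0.0881 and 0.700 against 1.39, 11.1 and 101 CPM. In each of these the side B libraries lay above side A, with distal 3 highest and proximal 2 only a few CPM above distal 2. The intermediate filament desmin (DES) had 0.580, 0.352 and 1.07 against 2.45, 10.2 and 84.3 CPM. The troponin TNNC2 had 0.542, 0.308 and 1.52 against 2.82, 22.01 and 231 CPM. The myosin heavy chain MYH1 had 0.696, 0 and 2.97 against 5.82, 74.01 and 398 CPM. Its relative MYH13 had 0.271, 0.264 and 1.77 against 3.05, 32.4 and 196 CPM. These 4 followed the same order. MYH1, MYH13 and their neighbours MYH2 and MYH4 are close relatives in sequence, so the split of reads among them is uncertain.

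Of 32 listed muscle markers, 23 were tested, and 15 of them were higher in every side B library, with 0 higher in side A. Of all genes 9.68% and 10% were. Together the 32 took 0.0175% of the counts in proximal 1, 0.0178% in distal 1, 0.0240% in distal 2, 0.0241% in proximal 2, 0.0952% in proximal 3 and 0.704% in distal 3. Distal 2 and proximal 2 therefore hardly differed in this summed share, although they are on different sides. The sum includes TPM1, at 127 and 133 CPM in these libraries. The 15 genes above were each higher in proximal 2 than in distal 2, such as MYH1 (5.82 against 2.97 CPM), while ACTN3 (4.02 against 4.12 CPM) was not. Distal 3 was the highest library for 23 of 23, which held for fast-muscle genes and for genes that tumour cells also make. The fast troponin TNNT3 had 0.0387, 0.0441 and 0.618 against 0.831, 5.61 and 72.5 CPM. Its partner TNNI2 had 0.193, 0.0881 and 0.371 against 0.508, 6.51 and 77 CPM. The actinin ACTN3 had 3.21, 2.25 and 4.12 against 4.02, 7.77 and 75.2 CPM. TPM1, a tropomyosin also made outside muscle, had 95.3, 101 and 127 against 133, 414 and 3706 CPM. In bulk RNA, more cells of a type and more RNA per cell cannot be told apart. How far muscle RNA takes part in the other differences of distal 3 and proximal 3 was not tested.

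The scores of the other cell type marker lists overlapped between the sides. Of 8 tested smooth muscle and pericyte markers, 2 were higher in every side B library, DES among them, and 0 in side A. Of all genes 9.68% and 10% were. Of 4 tested adipocyte markers 0 separated the sides. Whether tumour or host cells made the transcripts of these lists was not tested. The myelin protein MBP had 0.387, 0.661 and 11.5 against 0.739, 12.3 and 2.38 CPM. It was high in distal 2 of side A and in proximal 3 of side B and low in the rest. The haemoglobin gene HBB was highest in proximal 3 and distal 3, at 0.232, 0.573 and 0.453 against 0.277, 3.86 and 2.08 CPM. Fibroblast markers took 0.473% to 0.618% of the counts, mostly from COL3A1, which had 3725 to 5104 CPM. Of 16 endothelial markers 2 were tested, of 18 myeloid markers 3, and of 13 lymphoid markers 1, and each of these lists took less than the muscle list did in any library.

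Outside muscle, the genes with the widest gap in favour of side B included synaptic, semaphorin, Wnt and clock genes. DLG4 encodes PSD-95, the main scaffold of the excitatory postsynapse (chromosome 17, 7187187 to 7220050), and had 37.8, 36.4 and 38.4 against 56.8, 56.8 and 79.3 CPM. FGD4, an exchange factor for the GTPase CDC42 whose loss causes a peripheral neuropathy (chromosome 12, 32399558 to 32646050), had 12.6, 11.1 and 12.03 against 21.6, 27.8 and 22.2 CPM. In both genes the side A libraries lay within a few CPM of each other and every side B library lay well above them. The semaphorin receptor PLXND1 had 4.60, 4.10 and 4.66 against 6.65, 7.41 and 7.88 CPM. The Wnt receptor FZD2 had 12.3, 11.5 and 12.7 against 20.6, 17.7 and 21.7 CPM. The scaffold SASH1 had 23.1, 22.3 and 20.8 against 33.3, 32.2 and 33.4 CPM. For SASH1 the 3 side B libraries were nearly equal, unlike for the muscle genes. NR1D1, the clock repressor REV-ERB alpha, had 3.75, 3.57 and 4.20 against 6.05, 7.95 and 13.3 CPM. DENND3, an activator of a Rab GTPase, had 3.87, 3.44 and 3.79 against 7.76, 6.15 and 6.47 CPM. FHL1, a LIM protein abundant in skeletal muscle, had 20.6, 16.7 and 20.4 against 29.1, 45.2 and 151 CPM and followed the muscle order. Just outside the 15 stood MAF, a transcription factor, at 10.3, 9.69 and 11 against 20.6, 15.3 and 33.03 CPM.

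The widest gap in favour of side A was that of TFPI, the tissue factor pathway inhibitor that restrains coagulation (chromosome 2, 187464230 to 187554435), at 13.6, 12.9 and 6.35 against 0.462, 3.14 and 2.93 CPM. Its counts were 352, 293 and 154 in side A and 10, 70 and 48 in side B, and proximal 2 was by far the lowest. BIRC3, the inhibitor of apoptosis cIAP2 and an NF-kappaB target (chromosome 11, 102317484 to 102339403), had 292, 402 and 268 against 103, 189.7 and 64.3 CPM, with distal 1 highest and distal 3 lowest. The retinoic acid receptor RARB had 21.3, 23.5 and 24.7 against 9.47, 15.4 and 14.3 CPM, while its relative RARG went the other way, with 67.5, 73.2 and 70.7 against 91.1, 90.8 and 95.5 CPM. The matricellular protein CCN1, a target of YAP, had 35.3, 36.4 and 44.5 against 13.9, 23.4 and 26.4 CPM. CCN2, the gene just outside the 15, had 16.4, 20.05 and 18.9 against 5.73, 12.9 and 7.57 CPM. Of 23 YAP and TEAD targets these 2 were the only ones higher in every side A library, and 1 was higher in side B. Of all genes 10% and 9.68% were. The neural adhesion protein PRTG had 44.03, 27.2 and 34.03 against 10.4, 18.4 and 13.6 CPM. The basigin relative EMB had 46.5, 41.5 and 50.6 against 24.8, 30.2 and 18.8 CPM.

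Other genes of this group differed by a small and even amount. FEZ2 had 71.3, 71.2 and 70.6 against 54.8, 54.7 and 53.7 CPM. The O-linked glycosylation enzyme GALNT7 had 30.5, 34.1 and 32.8 against 23.5, 23.7 and 23.1 CPM. The pseudokinase ULK4 had 7.47, 7.80 and 7.99 against 5.82, 5.52 and 5.56 CPM. Within each side these 3 genes varied little. EFCAB2 had the same form, at 7.43, 8.11 and 7.91 against 5.50, 5.30 and 5.43 CPM. So had ASB13, a substrate receptor of a ubiquitin ligase, at 13.97, 14.8 and 14.01 against 9.79, 10.6 and 10.1 CPM. SLC25A13, the mitochondrial aspartate and glutamate carrier citrin, had 37.8, 37.5 and 36.8 against 19.3, 28.8 and 24.2 CPM, with proximal 2 lowest. SYDE2, PHACTR2 and SLCO1A2 completed the 15.

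**Figure D2:**
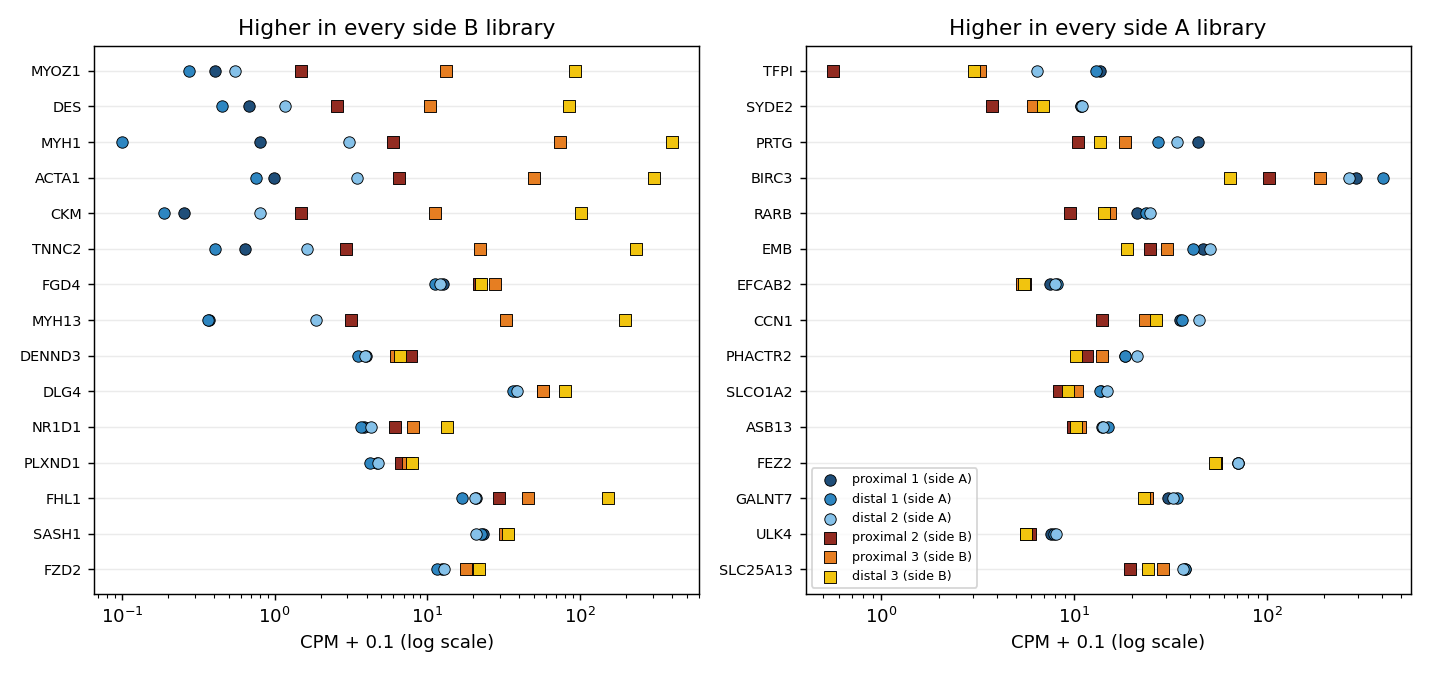
CPM plus 0.1 on a log scale for the 15 genes with the widest gap in favour of side B (left) and side A (right), 1 point per library, circles for side A and squares for side B. Muscle genes spread over several powers of 10 with distal 3 at the right, while genes such as FEZ2 form a tight cluster for each side.

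Mitochondrial and proteasome genes were higher in side A by small amounts. Of 75 mitochondrial ribosomal protein genes, 32 were higher in every side A library and 1 was lower, beside a background of 10%. Of 77 nuclear genes of oxidative phosphorylation 25 were higher and 0 lower, and of 31 proteasome genes 15 were higher and 0 lower. MRPL14, a protein of the large mitochondrial ribosomal subunit, had 55.7, 60.2 and 58.6 against 45.9, 47.4 and 43.6 CPM. COX7A2, a subunit of cytochrome oxidase, had 105, 100.2 and 97.4 against 78.9, 81.02 and 82.1 CPM. SDHB of succinate dehydrogenase had 125, 125 and 121 against 92.4, 103 and 97.9 CPM. NDUFA1 of complex I had 45.3, 44.5 and 44.7 against 35.6, 35.8 and 38.2 CPM. Each of these was higher in side A by a margin larger than the range within side A. Of the proteasome core, PSMA6 had 17.3, 17.1 and 17.8 against 14.5, 13.97 and 14.7 CPM. PSMA4 had 414, 415 and 392 against 364, 349 and 354 CPM. PSMB2 had 147, 149.7 and 158 against 129, 131 and 138 CPM. The median score of the oxidative phosphorylation list (log2 CPM minus the gene's mean over the 6 libraries) was 0.09, 0.06 and 0.05 in side A and -0.06, -0.14 and -0.01 in side B. Proximal 3 was thus the lowest library, and it was the lowest for 36 of the 77 genes. Of 30 ribosome biogenesis genes 6 were higher in side A, NOP10 (64.4, 68.3 and 65.02 against 57.5, 54.9 and 55.9 CPM) and NPM1 (1921, 2015 and 1789 against 1747, 1566 and 1757 CPM) among them.

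Transcript length and base composition moved with this difference. The median transcript length was 1547 bases for the mitochondrial ribosomal, 1257 for the oxidative phosphorylation and 1581 for the proteasome genes, where all tested genes had 3477. Over all genes, the share higher in side A was 15% in the quartile with the shortest transcripts and 6.88% in the longest, and 16.5% in the quartile with the lowest GC content and 4.26% in the highest. The share higher in side B ran the other way, from 5.19% to 15.3% with length and from 4.05% to 14.2% with GC content. The GC trend lay mainly in proximal 3, whose median deviation went from -0.07 in the lowest GC quartile to 0.07 in the highest, against 0.05 to -0.04 in proximal 1. In proximal 2 and distal 3 the medians of all 4 quartiles lay between -0.01 and 0.01. After each library was corrected for GC content and length, 16 of 75, 12 of 77 and 7 of 31 genes were still higher in side A, and 8.62% of all genes were.

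The mitochondrially encoded genes did not follow their nuclear partners. Proximal 2 was the highest library for 12 of the 13 tested, against 16.6% of all genes, with 0 that separated the sides. MT-ND2, of complex I, had 1358, 1445 and 1568 against 1663, 1211 and 1131 CPM. MT-CO1, of cytochrome oxidase, had 6805, 6562 and 6643 against 8201, 6378 and 7164 CPM. For MT-CO2 (2264, 2480 and 2758 against 2623, 1783 and 2205 CPM) distal 2 was highest and proximal 3 lowest.

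Glycolysis genes leaned to side B. Of 25 tested, 9 were higher in every side B library and 1 in every side A library, beside 9.68% and 10% of all genes. HK2, the main hexokinase of many tumours, had 93.5, 86.4 and 82.9 against 124, 121 and 123 CPM. The aldolase ALDOA had 11.2, 12.1 and 11.5 against 16.1, 15.2 and 16.2 CPM. For both, the 3 side B libraries lay close together and above side A. The glucose transporter SLC2A1 differed less, at 28.2, 28.4 and 27.4 against 33.1, 30.3 and 30.3 CPM, and the brain aldolase ALDOC was highest in proximal 3, at 5.80, 4.89 and 5.69 against 6.46, 11.3 and 6.53 CPM. After correction for GC content and length 6 of the 25 were higher in side B, against 8.53% of all genes. Of 22 hypoxia response genes 5 were higher in side B and 1 in side A, against 9.68% and 10% of all genes. The 1 was the collagen cross-linking enzyme LOX (9.09, 5.68 and 5.89 against 2.17, 3.91 and 1.10 CPM). In the hypoxia list proximal 2 led: it was the highest library for 15 of 22, against 16.6% of all genes. Distal 2 had the lowest list score, at -0.15. DDIT4, an inhibitor of mTORC1 signalling, had 83.4, 74.4 and 53.4 against 119, 86.9 and 87.1 CPM. MXI1, an antagonist of MYC, had 58.7, 57.9 and 47.1 against 71.3, 61.3 and 68.1 CPM.

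The scores of the axon guidance and synapse lists were higher in each side B library than in side A, while those of 10 neuron markers overlapped between the sides, with 1 gene higher in each direction. Of 51 axon guidance genes, 8 were higher in every side B library and 1 in every side A library, against 9.68% and 10% of all genes. The list score was -0.08, -0.06 and -0.07 in side A and 0.11, 0.04 and 0.22 in side B. Besides PLXND1 the widest gaps were those of UNC5B, SLIT1 and EFNA5. The netrin receptor UNC5B had 3.52, 3.26 and 3.05 against 4.99, 4.27 and 5.19 CPM. The repellent SLIT1 had 12.7, 11.5 and 11.2 against 19.3, 14.9 and 16.8 CPM. The ephrin EFNA5 had 21.1, 21.6 and 20.6 against 24.8, 26.3 and 34.1 CPM. Of 35 synapse genes 7 were higher in side B and 2 in side A, against the same 9.68% and 10%. The vesicle GTPase RAB3A had 7.39, 8.37 and 8.16 against 11.6, 10.2 and 11.2 CPM. The calcium sensor SYT5 had 0.851, 0.837 and 0.453 against 1.80, 1.08 and 1.89 CPM, from few reads in each library. Corrected for GC content and length, 6 synapse genes and 4 axon guidance genes were higher in side B, against 8.53% of all genes. For axon guidance that is a share near the background, and its list scores then overlapped between the sides. Distal 3 was the highest library for 22 of 51 axon guidance and 14 of 35 synapse genes, against 26.9% of all genes.

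The neuroendocrine programme of small cell lung cancer showed no such members. Its list score was higher in every side B library (0.04, 0.03 and 0.13 against -0.10, -0.05 and -0.12), but of 22 genes 0 were higher in every side B library and 1, the RNA-binding protein ELAVL4, was higher in side A, at 7.97, 8.46 and 9.11 against 6.10, 7.63 and 6.53 CPM. Among 34 stathmin and microtubule genes 3 were higher in each direction, near the 9.68% and 10% of all genes. MAPT (tau) had 78.7, 66.8 and 70.6 against 104, 93.1 and 99.3 CPM. MAP1A, which also binds microtubules, had 54.9, 46.04 and 46.7 against 99, 72.6 and 63.99 CPM. Both were higher in every side B library. STMN2, named in the title of the series, had 0.155, 0.485 and 3.13 against 0.416, 0.539 and 0.794 CPM, highest in distal 2, and did not separate the sides. Of 35 genes of β-alanine metabolism, also in the title, 3 were higher in side B and 2 in side A. These shares, 8.57% and 5.71%, lay below the 9.68% and 10% of all genes. ALDH6A1, a mitochondrial semialdehyde dehydrogenase, had 7.93, 8.24 and 8.28 against 9.93, 9.84 and 12.6 CPM. PPCS, an enzyme of coenzyme A synthesis, had 70.6, 65.9 and 68.8 against 50.9, 59.4 and 58.1 CPM.

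Of 24 Notch pathway genes 6 were higher in side B and 1 in side A, against 9.68% and 10% of all genes. The receptor NOTCH3 had 146, 164 and 156 against 175, 188 and 175 CPM. The regulator DTX1 had 13.1, 11.1 and 12.5 against 15.1, 14.7 and 21.6 CPM. Its relative DTX3 had 53.1, 48.7 and 51.7 against 59.7, 62.2 and 73.5 CPM. The ligand JAG2 had 13.7, 12.6 and 13.8 against 14.2, 15.4 and 17.9 CPM. After the correction for GC content and length, 2 Notch genes were higher in side B, a share near the 8.53% of all genes, and the list scores of the sides overlapped. Of 23 Wnt targets and receptors 4 were higher in side B and 0 in side A, against 9.68% and 10% of all genes. FZD2 and the feedback inhibitor NKD1 (9.09, 8.55 and 8.36 against 10.6, 11.9 and 10.6 CPM) had the widest gaps.

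**Figure D3:**
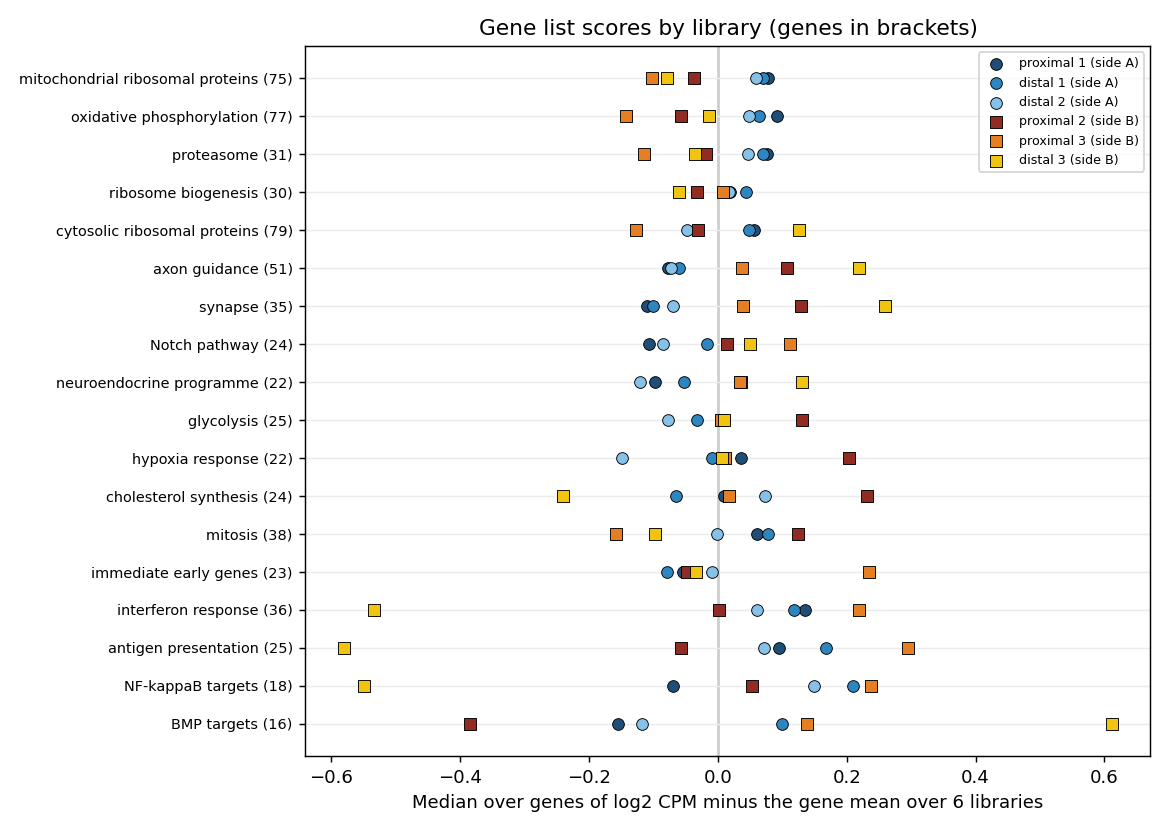
List scores by library (x axis, median over the tested genes of log2 CPM minus the gene's mean over 6 libraries), 1 row per gene list with its number of genes, circles for side A and squares for side B. Circles and squares separate for the mitochondrial, proteasome, axon guidance and synapse lists, while in the antigen presentation, interferon and NF-kappaB lists distal 3 alone lies at -0.53 to -0.58.

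Immune genes set distal 3 apart within side B. Of 25 antigen presentation genes, distal 3 was the lowest library for 22, against 25.4% of all genes, and proximal 3, on the same side, was the highest for 14, against 18.4%. Beyond the naming rule, the members named for the antigen presentation, interferon, NF-kappaB, bone morphogenetic protein, cholesterol, mitosis, ribosomal and stress lists were chosen after their values were seen. The list score was -0.58 in distal 3 and 0.30 in proximal 3, with the other 4 libraries between -0.06 and 0.17. HLA-B, a class I heavy chain, had 209, 221 and 197 against 175, 236 and 80.2 CPM. HLA-C had 148, 163 and 148 against 131, 173 and 82.7 CPM. Distal 3 lay well below the other 5 libraries in both, and proximal 3 was highest. The heavy chains are near-identical relatives that can share reads. Genes without such relatives were also lowest in distal 3: the class I light chain B2M had 549, 595 and 498 against 488, 491 and 289 CPM. The peptide transporter TAP1 had 156, 177 and 154 against 136, 201 and 87.1 CPM. Its loading partner TAPBP had 98.8, 120.2 and 110.1 against 81.5, 135 and 58.9 CPM. The immunoproteasome subunit PSMB9 had 27.9, 30.97 and 29.5 against 25.6, 31.1 and 15.5 CPM. The chaperones CALR and CANX, which also serve protein folding, were lower in distal 3 by less. CALR had 692, 716 and 654 against 721, 706 and 555 CPM. CANX had 887, 895 and 808 against 829, 793 and 739 CPM.

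Interferon response genes had the same form. Distal 3 was the lowest library for 26 of 36 and proximal 3 the highest for 19, against 25.4% and 18.4% of all genes. Of the 36, 2 were higher in side B and 4 in side A, against 9.68% and 10%. The RNA sensor IFIH1 had 29.2, 34.8 and 26.5 against 25.5, 31.2 and 15.1 CPM. The antiviral helicase DDX60 had 33, 37.3 and 33 against 37.7, 33.3 and 14.5 CPM. The ADP-ribosyltransferase PARP14 had 103, 116 and 104 against 96.7, 118 and 60.4 CPM. IFIT1, which binds viral RNA, had 24.5, 22.3 and 21.3 against 23.7, 22.5 and 11.1 CPM. XAF1, an apoptosis factor, had 26.5, 27.5 and 29.7 against 32.5, 34.1 and 10.99 CPM. In each of these the other 5 libraries lay closer to one another than to distal 3. STAT2, which carries the interferon signal, went the other way, at 50.9, 47.6 and 52.04 against 57.7, 65.3 and 68.6 CPM, higher in every side B library.

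Promoters of these genes are known to hold interferon-stimulated response elements, and matches to the core of that element are shown here because the genes were low together in distal 3. The letters searched were GAAANNGAA on either strand (a match on the opposite strand reads as the reverse complement), in the 250 bases before the annotated start in the RefSeq promoter table (GRCh38.p14). Of 28 tested interferon response genes found in that table, 15 (53.6%) held a match, and of 20 antigen presentation genes 10 (50%), against 562 (5.26%) of 10675 tested genes and 7.06% of all 27305 promoters. Distal 3 was the lowest library for 11 of those 15 and 9 of those 10, but for 156 of the 562 genes in all, a share near the background. Capitals mark the match, and each sequence reads 5′ to 3′ in the direction of its gene.
B2M: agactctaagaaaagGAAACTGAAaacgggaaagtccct
TAP1: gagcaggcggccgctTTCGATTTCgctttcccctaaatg
TAP2: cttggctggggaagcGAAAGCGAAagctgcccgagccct
TAPBP: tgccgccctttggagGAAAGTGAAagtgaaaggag
DDX60: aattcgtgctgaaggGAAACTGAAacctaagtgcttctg
PARP14: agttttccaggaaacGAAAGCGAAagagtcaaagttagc
IFIT1: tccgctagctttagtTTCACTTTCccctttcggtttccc
These stretches lie at chr15:44711364-44711402 for B2M (plus strand), chr6:32853814-32853852 for TAP1 (minus strand) and chr6:32838774-32838812 for TAP2 (minus strand). The others lie at chr6:33314079-33314113 for TAPBP (minus strand), chr4:168318817-168318855 for DDX60 (minus strand), chr3:122680795-122680833 for PARP14 (plus strand) and chr10:89392493-89392531 for IFIT1 (plus strand).
A match is a description of the letters and says nothing of binding in these tumours.

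NF-kappaB targets were also lowest in distal 3, for 13 of 18, against 25.4% of all genes. The inhibitor NFKBIA had 85.4, 101 and 91.3 against 103, 109 and 46.2 CPM. The feedback regulator TNFAIP3 had 24.9, 28.7 and 24.8 against 31.9, 32.9 and 13.3 CPM. The subunit NFKB2 had 112, 134 and 131 against 142, 157 and 59.4 CPM. In these 3 distal 3 was lowest and proximal 3 highest. BIRC3, given above, and the chemokine CCL2 (3.64, 4.58 and 4 against 2.45, 1.57 and 1.28 CPM) were the 2 of 18 that were higher in every side A library. That share is near the 10% of all genes. The adhesion molecule ICAM1 had 54.98, 102 and 51.7 against 12.98, 55.9 and 15.9 CPM, with distal 1 highest and proximal 2 and distal 3 low. The letters GGGNNTTCC, on either strand, which fit part of the NF-kappaB sites, were in the promoters of 5 (35.7%) of 14 targets found in the table, against 7.32% of 10675 tested genes and 5.81% of all promoters. Distal 3 was the lowest library for 4 of those 5, and for 236 of the 781 tested genes with a match, against 25.4% of all genes. Of 20 antigen presentation genes 3 (15%) held a match. Matches of the targets BIRC3 and TNFAIP3 and of HLA-B, an antigen presentation gene, are shown in capitals. These 3 genes were picked because they were lowest in distal 3.
BIRC3: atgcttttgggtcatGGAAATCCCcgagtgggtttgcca
TNFAIP3: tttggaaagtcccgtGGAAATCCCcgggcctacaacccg
HLA-B: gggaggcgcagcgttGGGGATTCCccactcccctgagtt
They lie at chr11:102317270-102317308 for BIRC3 (plus strand), chr6:137867189-137867227 for TNFAIP3 (plus strand) and chr6:31357333-31357371 for HLA-B (minus strand).

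**Figure D4:**
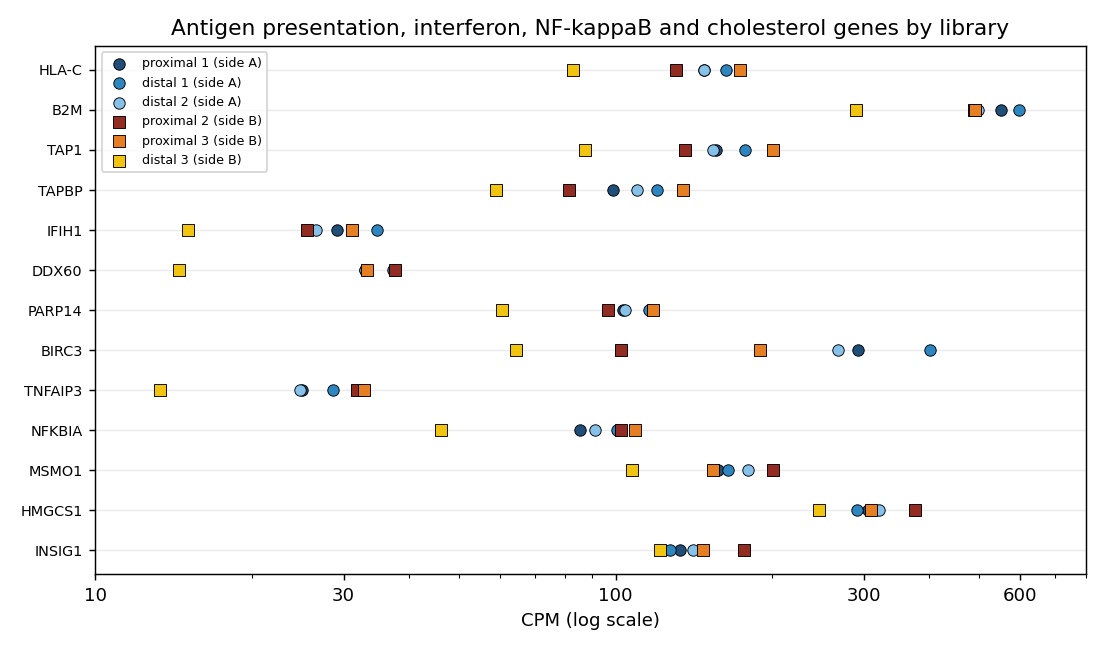
CPM on a log scale for antigen presentation, interferon, NF-kappaB and cholesterol genes, 1 point per library, circles for side A and squares for side B. Distal 3 is the lowest library in all 13 rows, and proximal 2 is the highest for MSMO1, HMGCS1 and INSIG1.

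Distal 3 was set apart by further genes on both ends. The cystine transporter SLC7A11 had 50.8, 44.1 and 24.1 against 47.1, 48.6 and 168 CPM. The ubiquitin ligase RNF144B had 12.8, 16.8 and 4.04 against 36.1, 8.22 and 109 CPM. The chromatin protein HMGA2 had 12.5, 16.6 and 5.15 against 28.1, 9.93 and 66.7 CPM. The clock repressor BHLHE41 had 4.14, 8.55 and 1.94 against 9.19, 4.58 and 41.6 CPM. All 4 were highest in distal 3 and lowest in distal 2, and proximal 2 was the second highest for 3 of them. Among 16 targets of bone morphogenetic protein signalling distal 3 was highest for 7 and proximal 2 lowest for 9, against 26.9% and 17.8% of all genes. The inhibitor of differentiation ID2 had 11.9, 12.8 and 8.12 against 5.77, 26.2 and 52.5 CPM. The pseudoreceptor BAMBI had 16.7, 17.9 and 19.04 against 3.19, 12.9 and 37.6 CPM. Both were highest in distal 3 and lowest in proximal 2. Cytosolic ribosomal protein genes were highest in distal 3 for 52 of 79 and lowest in proximal 3 for 55, against 26.9% and 17.7% of all genes. RPL30 had 701, 680.4 and 607 against 674, 605 and 867 CPM. RPS14 had 762, 779 and 714 against 679.9, 644 and 857 CPM. Most of these 79 genes have processed pseudogenes that can share their reads. Of 28 unfolded protein response genes distal 3 was lowest for 16, against 25.4% of all genes. Among them was PDIA4, a folding enzyme, at 340.5, 359 and 329.8 against 335, 329 and 275 CPM.

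A run of neighbours on chromosome 10 was lowest in distal 3 and highest in proximal 2. The deubiquitinase STAMBPL1 (chromosome 10, 88880245 to 88923487) had 16.3, 15.6 and 18.2 against 32.1, 18.5 and 5.31 CPM, the smooth muscle actin ACTA2 (chromosome 10, 88935074 to 88991337) 548, 616 and 714 against 981, 585 and 190.3 CPM and the cholesterol hydroxylase CH25H (chromosome 10, 89205629 to 89207317) 4.95, 4.89 and 5.56 against 13.4, 5.93 and 1.77 CPM. The death receptor FAS and the lysosomal lipase LIPA, chosen after their values were seen because they lie between or beside these genes, shared this order. FAS had 159.6, 179 and 168 against 256, 154 and 61.7 CPM. LIPA had 221, 222 and 212 against 254, 189 and 143 CPM. All 5 were lowest in distal 3 and highest in proximal 2. IFIT1, given above, lies beyond them and shared the low value of distal 3 but not the high value of proximal 2. The wider stretch of chromosome 10 around these genes is described below.

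The genes most extreme in proximal 2 included COL11A1 and NID1, 2 genes of the matrix. Of 37 extracellular matrix genes it was the lowest library for 9 and the highest for 7, near the 17.8% and 16.6% of all genes. COL11A1, a fibrillar collagen (chromosome 1, 102876473 to 103108522), had 1929, 1554 and 1726 against 215, 2409 and 1465 CPM. DSEL, an enzyme that modifies dermatan sulfate, had 94.3, 87.4 and 103 against 7.16, 109.9 and 50.7 CPM. The receptor TNFRSF19 had 33.3, 32.8 and 21.6 against 3.37, 32.02 and 56.8 CPM. The sphingosine 1-phosphate receptor S1PR1 (chromosome 1, 101236899 to 101242313) had 15.7, 19.9 and 21.4 against 1.34, 16.2 and 6.17 CPM. Proximal 2 lay far below the other 5 libraries in all 4. On the other end stood genes in which proximal 2 was highest. The basement membrane protein NID1 had 38.3, 34.5 and 38.1 against 93.97, 42.2 and 36.1 CPM. The adhesion protein FLRT3 had 2.55, 4.85 and 1.81 against 20.2, 5.84 and 3.79 CPM. The protease ADAMTS9 had 8.82, 6.39 and 10.8 against 33.7, 11.9 and 5.50 CPM. The endocytic receptor CUBN had 11.4, 12.3 and 13.3 against 32.1, 11.9 and 10.99 CPM.

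Cholesterol synthesis genes separated proximal 2 from distal 3, both on side B. Proximal 2 was the highest library for 18 of 24, against 16.6% of all genes. Distal 3 was the lowest for 20, against 25.4%, and 0 of 24 separated the sides. The list score was 0.23 in proximal 2 and -0.24 in distal 3, with the other 4 libraries between -0.06 and 0.07. STARD4, a sterol carrier, had 37.3, 40.9 and 50.1 against 47.98, 35.3 and 18.8 CPM. MSMO1, a sterol oxidase, had 157, 164 and 179.8 against 201, 154 and 108 CPM. HMGCS1, which makes the precursor HMG-CoA, had 305, 291 and 321 against 377, 309.8 and 246 CPM. INSIG1, a sterol sensor partner, had 133, 127 and 141 against 177, 147 and 122 CPM. SREBF2, the transcription factor of the pathway, had 138, 136 and 159 against 210.5, 178 and 133 CPM and lies on chromosome 22, which is described below.

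Proliferation genes divided side B in another way. Of 38 mitosis genes, proximal 2 was the highest library for 20, against 16.6% of all genes. Proximal 3 was the lowest for 19 and distal 3 for 15, against 17.7% and 25.4%. ASPM, a spindle pole protein, had 242, 224 and 225 against 201, 183 and 168 CPM. CDC20, an activator of the anaphase complex, had 113, 117 and 121 against 108, 113 and 95.7 CPM. CDK1, the kinase of mitotic entry, had 218, 231 and 217 against 238, 165 and 216 CPM. ANLN, a protein of the contractile ring, had 274, 286 and 258 against 307, 222 and 249 CPM. KIF11, a spindle motor, had 306, 299.7 and 289 against 332, 263 and 269 CPM. In CDK1, ANLN and KIF11, side A lay between proximal 2 and proximal 3. Without proximal 2, 23 of 38 were higher in every side A library than in proximal 3 and distal 3, against 2279 of all 13382 genes. Of 31 genes of the amino acid response to ATF4 proximal 2 was lowest for 16, against 17.8% of all genes. Among them was DDIT3, a stress-induced transcription factor, at 22.6, 25.9 and 22.7 against 16.3, 25.4 and 28.1 CPM.

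The genes that stood highest in proximal 3 included EGR1, HMOX1 and both chains of type I collagen. The immediate early factor EGR1 had 17.4, 18.4 and 21.1 against 14.9, 41.2 and 22.04 CPM. The haem oxygenase HMOX1 had 8.28, 10.002 and 10.6 against 7.85, 17.9 and 4.64 CPM. The fibrillar collagen COL1A1 had 7.70, 16.04 and 18.9 against 18.6, 62.2 and 38.3 CPM. Its partner chain COL1A2 had 3.79, 10.002 and 10.9 against 9.51, 40.2 and 24.97 CPM. In each of these proximal 3 was highest, and the 2 collagens were lowest in proximal 1. Of the 12 fibroblast markers tested, proximal 3 was the highest library for 2, against 18.4% of all genes. The list took 0.559% of its counts and 0.565% to 0.618% in side A, mostly from COL3A1. The list score, which weighs genes alike, was 0.02 in proximal 3 and 0.07 in distal 3. In the other libraries it was -0.15 to -0.04. Proximal 3 was the highest library for 10 of 23 immediate early genes, against 18.4% of all genes. Of the 23, 4 (EGR3, NR4A3, NR4A1 and DUSP1) were higher in every side B library, against 9.68% of all genes. NR4A3 had 5.73, 5.07 and 6.18 against 9.05, 8.44 and 6.84 CPM. On the other end the neural secreted protein NELL2 had 155, 129 and 106 against 196, 53.8 and 320.1 CPM. The adhesion molecule ALCAM had 15.98, 13.4 and 16.3 against 21.8, 7.41 and 31.02 CPM. Both were lowest in proximal 3 and highest in distal 3, 2 libraries of side B.

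Extracellular matrix and signalling lists held genes of both directions. Of 37 matrix genes 4 were higher in each side, near the 9.68% and 10% of all genes. The proteoglycan decorin (DCN) had 584, 577 and 573 against 395, 452 and 314 CPM. The laminin LAMA4 had 3.87, 4.85 and 7.17 against 2.22, 3.23 and 2.50 CPM. Both were higher in side A. The latent TGF-beta binding protein LTBP2 had 4.06, 4.67 and 3.96 against 6.74, 5.57 and 8.06 CPM. The laminin LAMA5 had 45.4, 37.98 and 49.7 against 66.2, 54.3 and 77.4 CPM. Both were higher in side B. Of 16 genes of fibroblast growth factor and MAPK output 3 were higher in side B and 1 in side A, against 9.68% and 10%. The feedback inhibitor SPRED3 had 5.22, 6.65 and 6.88 against 7.71, 8.26 and 9.59 CPM. MYC, a growth-promoting transcription factor, had 73.7, 83.4 and 75.3 against 90.4, 97.2 and 98.7 CPM. ETV1, a transcription factor downstream of the pathway, went the other way at 279, 269.8 and 260.3 against 233, 207 and 153 CPM. Of 29 p53 and apoptosis genes 3 were higher in side A, near the 10% of all genes, and 1 in side B, against 9.68%. Among the 3 was PMAIP1, the apoptosis inducer NOXA, at 10.1, 10.4 and 8.61 against 6.14, 7.95 and 5.56 CPM. Distal 3 was the lowest library for 15 of the 29, against 25.4% of all genes.

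Other genes crossed the programmes just described. The mesenchymal cadherin CDH11 had 1.08, 1.54 and 1.32 against 2.12, 5.84 and 6.11 CPM. S100A6, a calcium-binding protein, had 2.71, 4.89 and 5.11 against 6, 8.53 and 25.5 CPM. Both were higher in every side B library, by far the most in proximal 3 and distal 3 for CDH11 and in distal 3 for S100A6. CRABP2, which carries retinoic acid to the nucleus, was higher in side B together with RARG, at 11.2, 16.5 and 17.5 against 27.1, 18.5 and 30.2 CPM. Of 31 oxidant defence genes 4 were higher in side A and 2 in side B, against 10% and 9.68% of all genes. Among the 4 was the peroxiredoxin PRDX1, at 423, 417 and 391 against 352, 346 and 351 CPM. Of 39 genes of DNA replication 3 were higher in side A and 2 in side B, against 10% and 9.68% of all genes.

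Few genes set a single side A library apart from all the other libraries. Genes that differ only among the side A libraries were not counted, and their pairs differed by more than counting error, as given above. Proximal 1 was highest for the glycosyltransferase MGAT4C (20.003, 6.79 and 10.96 against 9.74, 10.6 and 6.47 CPM) and the glutamate transporter SLC1A2 (16.9, 10.2 and 6.55 against 1.99, 8.58 and 4.46 CPM). Distal 1 was highest for the matrix protein HMCN1 (10.8, 26.4 and 14.8 against 15.6, 9.34 and 16.2 CPM) and the receptor EPHA2 (11.7, 17.8 and 12.5 against 7.02, 13.1 and 8.67 CPM). Distal 2 was highest for the nuclear corepressor NRIP1 (8.28, 6.39 and 20.7 against 4.16, 8.53 and 8.49 CPM) and the hyaluronan receptor CD44 (64.7, 52.1 and 90.1 against 28.5, 61.3 and 42.3 CPM). Proximal 2 was lowest for both NRIP1 and CD44.

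Differences between libraries also followed chromosomes. Genes of at least 5 CPM were grouped into 264 windows of about 40 neighbours, and the median deviation of a window from the genes' medians over the 6 libraries was taken. In side A it stayed within 0.15 in all windows. The reference favours such small values, since it includes the side A libraries, which lie close to one another. The deviation passed 0.15 in either direction in 9 windows of proximal 2, 2 of proximal 3 and 16 of distal 3. Those of distal 3 lay above 0.15 on chromosomes 7, 8 and 19, with the highest, 0.21, on chromosome 19. They lay below -0.15 on chromosomes 1, 4, 6, 8, 18 and 22, with the lowest, -0.24, on chromosome 18. DNA copies were not measured, and host RNA, base composition and chromosome cannot be told apart by these values.

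Chromosome 22 was shifted as a whole, and in opposite directions within side B. Its 6 windows stood at 0.15 to 0.23 in proximal 2 and at -0.11 to -0.17 in distal 3, where side A stayed between -0.08 and 0.03. On chromosome 1 proximal 2 stood at -0.24 from 100.3 to 110.4 Mb, the window that holds S1PR1 and COL11A1, and at -0.29 from 110.6 to 117.97 Mb. Distal 3 stood at -0.10 to -0.18 in the 7 windows from 165.7 Mb to the end of the long arm. On chromosome 6 distal 3 stood at -0.13 to -0.22 in the 6 windows from 35.8 to 137.2 Mb and at 0.04 and 0.03 beyond. The HLA, TAP and TAPBP genes lie before that stretch, in windows where distal 3 stood at -0.03 to -0.08. Whether shifts along chromosomes take part in the low antigen presentation genes of distal 3 was not tested. The chromosome 10 window from 74.0 to 89.6 Mb holds STAMBPL1, ACTA2 and CH25H. It stood at -0.14 in distal 3 and 0.03 in proximal 2. Over the genes of the whole chromosome the median was -0.08 in distal 3 and 0.02 in proximal 2. The low values of distal 3 are thus not confined to that run of neighbours.

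The genes that separated the sides were spread unevenly over chromosomes. Those higher in side A were 19.4% of the 677 tested genes of chromosome 6 and 17.3% of the 1345 of chromosome 1, and those higher in side B were 20.6% of the 792 of chromosome 17 and 16.4% of the 353 of chromosome 20. Over all chromosomes they were 10% and 9.68%. SDHB lies on chromosome 1, MRPL14 and COX7A2 lie on chromosome 6, and DLG4, NR1D1, FZD2 and MAPT on chromosome 17.

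**Figure D5:**
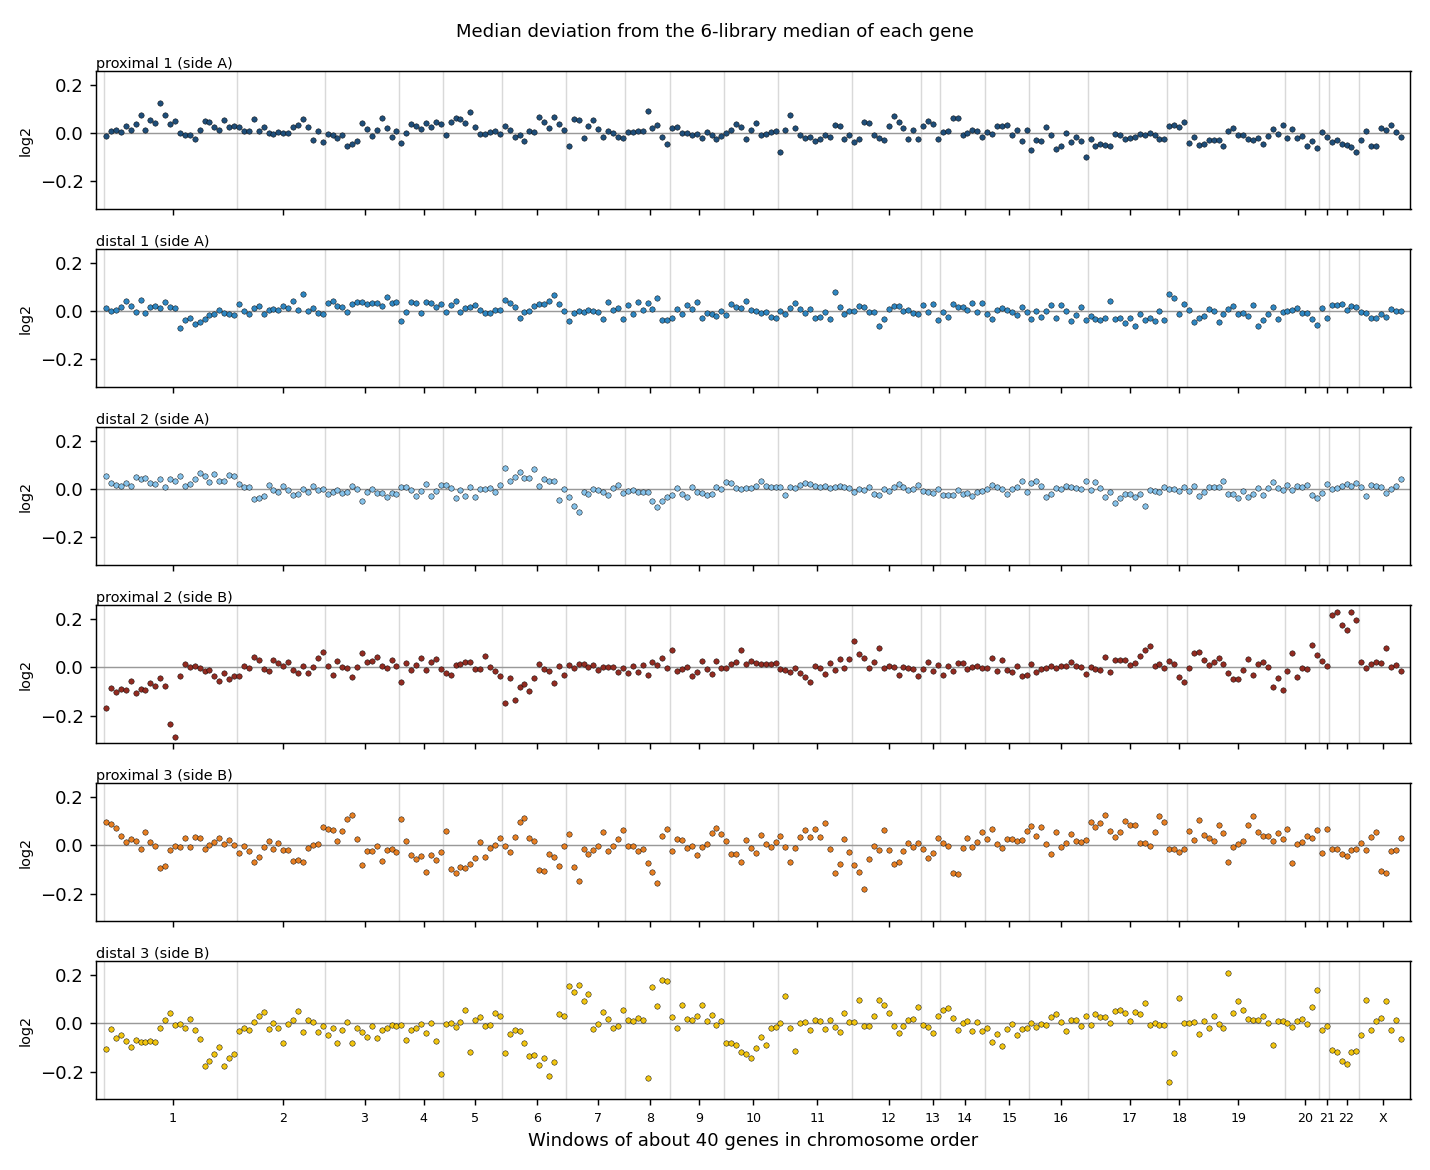
Median deviation (log2) of windows of about 40 neighbouring genes from the genes' medians over 6 libraries, 1 panel per library, windows in chromosome order. Side A panels stay within 0.15 of 0, while proximal 2 is shifted up along chromosome 22 and down on part of chromosome 1. Among other shifts, distal 3 is down on parts of chromosomes 1, 6, 18 and 22 and up on parts of chromosomes 7, 8 and 19.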

How the data were processed

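Poly(A) RNA of 6 tumour samples was sequenced. The authors deposited whole-number read counts per gene for 17081 genes, made with bcl2fastq, Trimmomatic 0.39, STAR 2.7.3a and featureCounts 2.0.1 on GRCh38, per the submitters' processing notes. The sources used here give no strand setting and do not say whether reads of the host were removed.

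Counts were scaled by TMM in edgeR 4.0.16 (R 4.3.3, limma 3.58.1), and edgeR's low-count filter left 13382 genes. Log2 CPM had a prior count of 3. A gene separates the sides where the lowest library of 1 side lies above the highest of the other. Distal against proximal was fitted over all 6 libraries with edgeR's quasi-likelihood test at an adjusted p of 0.05, with DESeq2 1.42.0 as the alternative. The labels do not tie replicates to animals, and p-values then rest on a spread among libraries that may be technical alone. The distal against proximal test and the non-overlap rule were tried on simulated counts with the same spread in every library. That simulation held no outlying library. The components, list scores, chromosome windows, correction for GC content and length and promoter search were not part of it.

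Positions come from the RefSeq table of GRCh38.p14, by symbol for 16431 and by synonym for 341 genes, with 309 unmatched. Transcript length and GC content come from the longest GENCODE v29 transcript, with a value for 98.3% of tested genes. Promoter letters were searched on both strands in the 250 bases before each start.

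The sides, the 49 gene lists, the promoter letters and the tests were chosen with earlier results of these data known. Named genes are the 15 with the widest gap per side and the 6 most extreme per library and direction, with a mean of at least 5 CPM, and up to 4 members of a list with the widest gaps (2 where none separates the sides). Alternatives changed the scaling, the filter, the prior count, the gap, the correction for GC content and length, and the libraries included.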

Additional observations from a re-analysis of the deposited data

How the results depend on the processing

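The numbers of genes that separate the sides stayed within 1.5 times of 1295 (side B higher) and 1338 (side A higher) under RLE scaling, library totals alone, no filter, a mean of at least 10 CPM and the correction for GC content and length. Asking for a gap of at least 0.2 in log2 CPM left 210 and 145, and moved the share of side B among them from 49.2% to 59.2%. Leaving out each library in turn gave 1686 to 2300 and 1735 to 2336, and without distal 3 and proximal 2, a setting chosen after seeing the data, 4468 and 4343. Fewer libraries make non-overlap easier by construction. The first component held 38.3% (without distal 3) to 58.7% of the variance. Of 43 lists with at least 5 tested genes, 11 had scores that separated the sides, 7 after the correction for GC content and length (added after seeing the data), 13 to 21 when each library was left out in turn, and 33 without distal 3 and proximal 2.

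Distal against proximal called 0 genes by edgeR, 1 by DESeq2, and 0 to 1 when each library was left out (1 without distal 1). With replicate number as a block it called 0, with 286 at an unadjusted p under 0.05. Deviations of same-numbered libraries correlated at 0.36, -0.11 and 0.18 over genes, and those of unlike-numbered libraries at -0.32 to 0.13. Both libraries numbered 1 are on side A and both numbered 3 on side B. For these, side and replicate number cannot be told apart. The labels do not say whether the numbers pair the samples, and the main test left pairing out. Depth limits genes under about 1 CPM, which is 16 reads in distal 3.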

Other observations

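A few genes driven by the circadian clock or by glucocorticoids, chosen after their values were seen, were higher in every side B library. Besides NR1D1 these were KLF9, a factor induced by glucocorticoids, at 13.2, 11.2 and 13.3 against 21.8, 17.5 and 43.3 CPM, and DBP, a clock output factor, at 6.69, 6.61 and 5.64 against 7.43, 9.88 and 10.6 CPM. The clock gene PER3 had 44.6, 46.9 and 45.2 against 48.6, 55.9 and 52.2 CPM, and TSC22D3, a glucocorticoid-induced leucine zipper, 31.2, 29.3 and 30.8 against 31.4, 32.5 and 37.9 CPM. Other genes of this kind overlapped between the sides. FKBP5, a glucocorticoid target, had 57.0, 60.9 and 55.5 against 63.9, 68.1 and 58.1 CPM, and SGK1, a kinase of the same kind, had 48.7 CPM in distal 3 and 6.06 to 13.7 CPM in the others. The hour at which each tumour was taken is not given in the sources used here.

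The intermediate filament vimentin (VIM), also chosen after its value was seen, stood at 4108 CPM in proximal 2, while the other 5 libraries ranged from 1820 to 2270 CPM. It did not separate the sides.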
